A study of Rattus norvegicus with 15 samples.

Results

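The proteasome genes described here were all rows of the gene table whose rat symbol starts with Psma, Psmb, Psmc, Psmd, Psme, Psmf or Psmg followed by a number. The rule found 50 of 16832 rows. Of these, 47 encode a subunit, activator, inhibitor or assembly chaperone, namely 8 of the alpha ring, 7 of the beta ring, 4 immune core subunits, 9 of the base, 8 of the lid, 5 activators or inhibitors and 6 assembly chaperones. The other 3 matched by name only: Psmc3ip and Psme3ip1, which are no proteasome subunits, and Psma6-ps1, an annotated pseudogene.

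The proteasome is the large protease that degrades proteins tagged with ubiquitin. Its core particle is a barrel of stacked alpha and beta rings with the cutting sites on 3 beta subunits inside, and the regulatory particle, made of a base of ATPases and a lid, binds, unfolds and feeds in the tagged protein. In mammals, blocking the protease is known to raise the transcripts of most subunits together through the transcription factor Nfe2l1 (Nrf1), and interferons raise the immune forms of the cutting subunits and the Psme1 and Psme2 activators.

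RNA was sequenced from undifferentiated cells of Odora, a rat line labelled as olfactory neuron, exposed to zinc gluconate, a zinc salt. There were 15 libraries in 5 groups of 3. Control cells had no stated exposure or time, 3 groups received 100 µM zinc gluconate for 6, 12 or 24 h, and 1 group received 200 µM for 6 h. All cells are of a single line, and the labels name no genotype or allele. No label states that replicates came from separate cultures, so each p-value reflects only how far these samples vary, and that variation may be technical.

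Values are read counts, given here as CPM, counts scaled to a common library total with TMM factors, and always in the order of replicates 1, 2 and 3. Libraries held 10.3 to 35.2 M counts (M for mega), so 3 counts, the detection floor used, equal 0.0853 to 0.290 CPM, counting error only. The libraries labelled 24 h and those labelled 200 µM matched in 3 pairs, with a chi-square per degree of freedom of 1.36 to 1.42 against at least 3.50 within any group. The pairs were replicate 2 of both labels, replicate 3 of 24 h with replicate 1 of 200 µM, and replicate 1 of 24 h with replicate 3 of 200 µM. Effects of dose and of time therefore cannot be told apart between these 2 labels, and their values are given side by side. Matched libraries may not be independent samples, so agreement between the 2 labels does not count as separate support. Heart muscle genes (Myh6, Myh7, Actc1, Myl2, Myl3 and Mybpc3) gave summed levels of 106, 26.7 and 107 CPM in control replicates, of 49.4 CPM in the 6 h replicate 1, and of at most 0.61 CPM in the other 11 libraries. A fit with a term for the 4 libraries with these transcripts, estimated from the 6 h group alone because every control carries it, is called the heart-transcript fit here. The term is equal for all 4, also for control replicate 2 with its lower sum. It rests on 1 library against 2, and fewer of all genes passed against control, 8.82% at 6 h and 0.473% at 12 h, beside 17.2% and 6.33% without the term. A call lost in this fit therefore does not show that the ratio became smaller. Of 13 olfactory lineage markers 5 passed the count filter. These were Ncam1 (86.0 to 105 CPM), Adcy3 (20.9 to 27.3 CPM), Tubb3 (13.5 to 25.6 CPM), Gng8 (3.66 to 9.27 CPM) and Gng13 (0.882 to 1.92 CPM). Omp, the marker of mature olfactory neurons, was at most 0.703 CPM in any library. Of 5 listed fibroblast genes, the collagens Col1a1, Col3a1 and Col1a2 were at 3343 to 4632, 1028 to 3438 and 840 to 1131 CPM. The other listed genes were low, Pdgfra at 4.80 to 27.9 CPM and Dcn at 0.143 to 3.49 CPM.

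All 47 genes passed the filter on low counts, their lowest count in any library being 35. Psma6-ps1 had 0 to 3 counts per library and was not tested. Across all 5 groups the overall test of edgeR's quasi-likelihood fit called 33 of the 47 at an adjusted p under 0.05, against 66.4% of all 10575 genes tested. These were 7 of 7 beta ring, 8 of 9 base, 6 of 8 lid, 4 of 8 alpha ring, 2 of 4 immune core, 4 of 5 activator or inhibitor and 2 of 6 assembly genes. Within groups the median coefficient of variation of the 47 genes was 5.27% to 6.25%. Because these are bulk samples, fewer cells of a type and less RNA per cell cannot be told apart in any level given here.

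**Figure D1:**
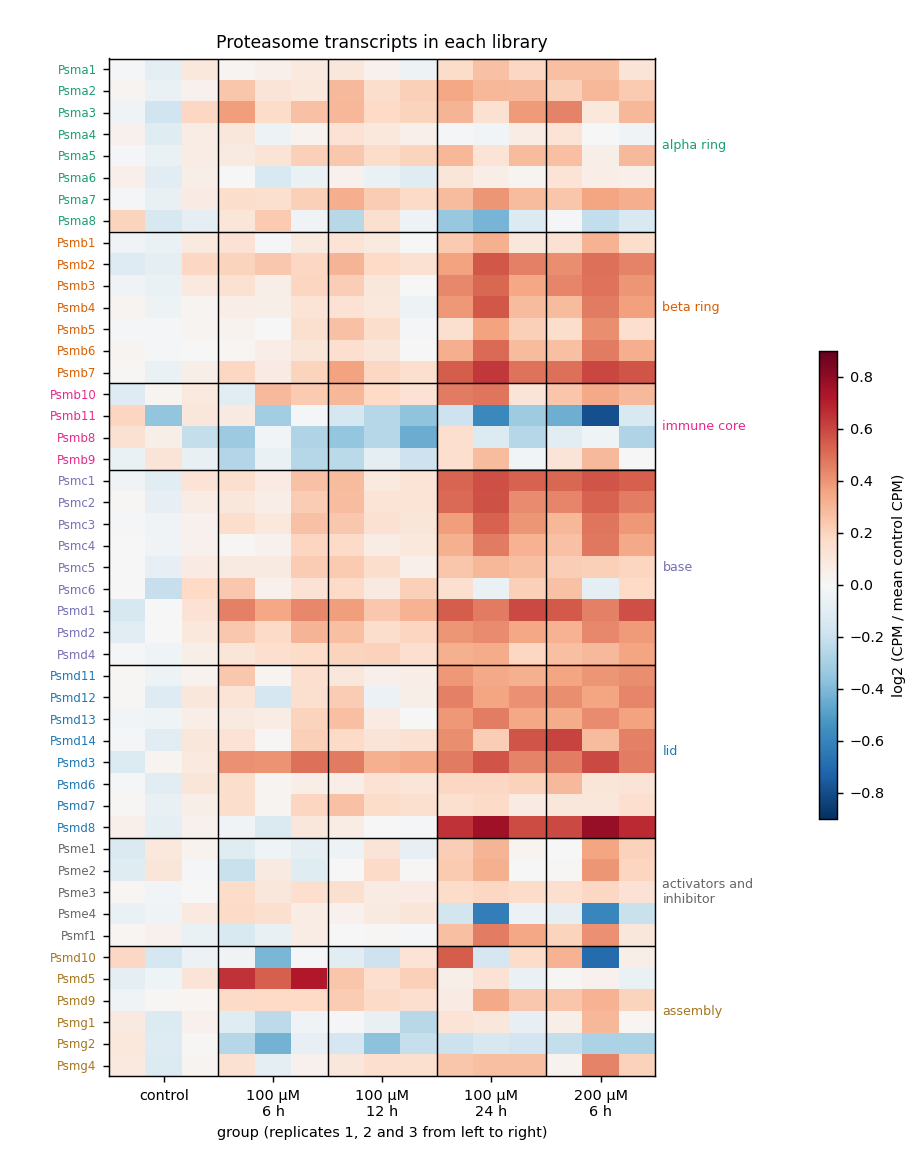
Level of each of the 47 proteasome genes in each of the 15 libraries, as log2 of its TMM-scaled CPM over the mean of the 3 controls. Columns are libraries by group and rows are genes by subcomplex. Psmd5 is high in the 6 h libraries at 100 µM, Psmd1 and Psmd3 in all 4 zinc groups, and most beta ring, base and lid genes under the 24 h and 200 µM labels.

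After 6 h at 100 µM, 4 of the 47 genes rose against control and none fell, against 17.2% of all genes called in either direction (9.1% higher and 8.1% lower). The genes were Psmd5, Psmd3, Psmd1 and Psmd2. Psmd5 is an assembly chaperone, Psmd3 a lid subunit, and Psmd1 and Psmd2 are the large scaffold subunits of the base. At 8.51% of the 47, this share was close to the 9.1% of all genes called higher. The median log2 ratio over the 47 genes was 0.12, beside 0.00 over all genes tested. The count was 8 without control replicate 3, and 8 by DESeq2, whose calls included 2 alpha ring genes. Of all genes 1547 were called without control replicate 3 and 1885 by DESeq2, beside 1819 in the reported fit.

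Psmd5, a chaperone that binds base ATPases before the regulatory particle is complete and is known to restrain its assembly, had the largest ratio of the 47. It was at 81.9, 84.7 and 94.1 CPM in control and at 136, 126 and 143 CPM after 6 h. The groups did not overlap, and the rise was 1.55-fold (log2 0.64 ± 0.07 SE, edgeR adjusted p = 3.80e-06). After 12 h the gene was at 103, 96.3 and 101 CPM, above the controls in each library but short of the threshold (log2 0.20 ± 0.07). It was at 90.2, 95.2 and 83.3 CPM under the 24 h label and, under the 200 µM label, at 87.4, 89.2 and 83.2 CPM. Both ranges overlapped the control range, and when raw library totals replaced the TMM factors the gene was lower than control, at -0.33 ± 0.07 under the 24 h label and -0.38 ± 0.07 under the 200 µM label. The fall from 6 to 12 h at 100 µM was log2 -0.43 ± 0.07 (edgeR adjusted p = 0.00213), and Psmd5 was the only 1 of the 47 called between these times, against 0.974% of all genes. Between doses at 6 h it was lower at 200 µM by log2 -0.64 ± 0.07.

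Psmd3 and Psmd1 rose in all 4 comparisons with control, which share the same 3 control libraries. Those of the 24 h and 200 µM labels also rest on matched libraries. Psmd3, a structural subunit of the lid, was at 172, 190 and 199 CPM in control, at 248, 247 and 263 CPM after 6 h and at 258, 233 and 237 CPM after 12 h. It was at 258, 276 and 254 CPM under the 24 h label and at 258, 282 and 257 CPM under the 200 µM label. Every zinc library lay above every control. The log2 ratios were 0.44 ± 0.07, 0.38 ± 0.07, 0.49 ± 0.07 and 0.51 ± 0.07 in that order of groups. Psmd1, the larger scaffold of the base that docks ubiquitin receptors, was at 177, 195 and 214 CPM in control, and at 267, 249 and 264 CPM after 6 h. After 12 h it was at 253, 231 and 243 CPM. It was at 284, 270 and 295 CPM under the 24 h label and at 286, 267 and 291 CPM under the 200 µM label, again without overlap with control. Its ratios were 0.41 ± 0.07, 0.31 ± 0.07, 0.54 ± 0.07 and 0.53 ± 0.07, and the 12 h call was lost without control replicate 1 or without replicate 1 of 12 h (edgeR adjusted p = 0.0739 and 0.0770). In the heart-transcript fit, which called 0.473% of all genes at 12 h, the 12 h calls of both genes were also lost (edgeR adjusted p = 0.258 for Psmd1 and 0.289 for Psmd3). Psmd2, the other base scaffold, rose by 0.24 ± 0.06 after 6 h, a call lost without control replicate 1 or replicate 3 of 6 h (edgeR adjusted p = 0.0761 and 0.0648) and in the heart-transcript fit (0.110).

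The promoter windows of 4 of these genes are printed because their transcripts followed different courses: Psmd1 and Psmd3 rose in every zinc group, Psmd5 rose at 6 h, and Psmd8, a lid subunit described further on, rose under the 24 h and 200 µM labels. The choice was made after their values were seen. Each window runs from 250 bases before to 50 after the annotated start, 5′ to 3′ on the gene's strand, from RefSeq on build GRCr8. Capitals mark the letters TGACNNNGC, the core of the antioxidant response element bound by Nfe2l1 and Nfe2l2, on either strand. The windows lie at chr9:94157721-94158020 (plus strand) for Psmd1, chr10:84139688-84139987 (plus strand) for Psmd3, chr3:38548441-38548740 (minus strand) for Psmd5 and chr1:93608640-93608939 (minus strand) for Psmd8.
Psmd1: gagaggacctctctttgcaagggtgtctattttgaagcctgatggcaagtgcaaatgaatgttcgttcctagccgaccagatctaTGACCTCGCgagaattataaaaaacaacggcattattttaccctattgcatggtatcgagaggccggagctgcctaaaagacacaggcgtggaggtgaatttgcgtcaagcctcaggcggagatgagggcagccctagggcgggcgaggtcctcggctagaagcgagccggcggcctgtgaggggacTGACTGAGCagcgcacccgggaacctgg
Psmd3: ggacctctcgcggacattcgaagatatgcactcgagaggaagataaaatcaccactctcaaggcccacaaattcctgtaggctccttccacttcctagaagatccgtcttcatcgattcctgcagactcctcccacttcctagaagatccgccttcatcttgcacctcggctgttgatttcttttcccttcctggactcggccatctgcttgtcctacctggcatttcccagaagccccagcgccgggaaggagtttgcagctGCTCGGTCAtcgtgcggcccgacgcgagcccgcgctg
Psmd5: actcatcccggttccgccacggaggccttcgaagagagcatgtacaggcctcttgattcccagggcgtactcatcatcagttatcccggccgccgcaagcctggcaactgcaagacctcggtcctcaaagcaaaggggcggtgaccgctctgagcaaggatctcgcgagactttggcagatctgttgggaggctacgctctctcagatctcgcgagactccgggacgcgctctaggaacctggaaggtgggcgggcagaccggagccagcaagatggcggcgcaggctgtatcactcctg
Psmd8: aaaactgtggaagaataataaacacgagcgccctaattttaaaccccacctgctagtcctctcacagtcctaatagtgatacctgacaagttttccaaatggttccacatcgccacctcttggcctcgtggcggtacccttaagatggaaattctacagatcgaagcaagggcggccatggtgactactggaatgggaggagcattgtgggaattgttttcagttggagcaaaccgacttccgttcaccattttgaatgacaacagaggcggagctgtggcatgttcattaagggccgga

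The letters stand at 2 places in the Psmd1 window and 1 in that of Psmd3, and not in the windows of Psmd5 and Psmd8. RefSeq windows were matched for 42 of the 47 genes, those of Psma7, Psmb11, Psmd6, Psmd12 and Psmd14 not being used here. The letters stand in 8 of the 42 windows (19.0%), against 12.2% of 27457 promoter windows. Those 27457 windows outnumber the 16832 rows of the gene table and so include genes outside it, while the 42 genes all passed the count filter. For each motif the 2 shares therefore compare unlike sets. The 8 windows are those of Psma3, Psmb2, Psmb5, Psmb6, Psmd1, Psmd3, Psmd9 and Psme4, and in that of Psmb2 the match shares a base with CCAAT. Of these 8 genes 7 rose under the 24 h label and none fell, with a median log2 ratio of 0.33 (TMM scaling). Of the 34 genes whose windows lack the letters, 21 rose and 1 fell, with a median of 0.25, and this difference was not tested. With the same scaling 29.7% of all genes tested rose and 31.3% fell under the 24 h label, with a median of -0.02. When library totals replaced the TMM factors, 4 of the 47 genes rose and 17 fell, and the split by letters was not made with that scaling. The heat shock letters GAANNTTC stand in 3 of the 42 windows (7.14%), against 8.34% of all, in Psmb9, Psmc3 and Psmd1. CCAAT, searched on both strands like the other motifs, stands in 20 of the 42 windows (47.6%), against 37.7% of all. A match is a run of letters and was not read as a bound site.

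After 12 h at 100 µM, 5 of the 47 genes rose and none fell, against 6.33% of all genes called (3.36% higher and 2.97% lower). Beside Psmd3 and Psmd1 these were Psma7 and Psma2 of the alpha ring, the gate through which proteins enter the core, and Psmb7, the trypsin-like cutting subunit. Psma7 was at 148, 142 and 157 CPM in control and at 187, 175 and 167 CPM after 12 h, without overlap (log2 0.24 ± 0.06, edgeR adjusted p = 0.0247). Psmb7 rose by 0.23 ± 0.07 and Psma2 by 0.22 ± 0.06. The median over the 47 genes was 0.11, beside 0.00 over all genes. The count of 5 fell to 1 without control replicate 1 or without replicate 1 of 12 h, to 2 without control replicate 2 and to 3 without replicate 2 of 12 h. Of all genes 286, 271, 516 and 438 were called in that order of fits, beside 669 in the reported fit. The count of 5 became 0 in the heart-transcript fit, with a median of 0.13 and 0.473% of all genes called. By DESeq2 it was 8, with 837 of all genes called. The heart-transcript sums of the controls stand above, and their part in these calls was not tested beyond that fit.

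**Figure D2:**
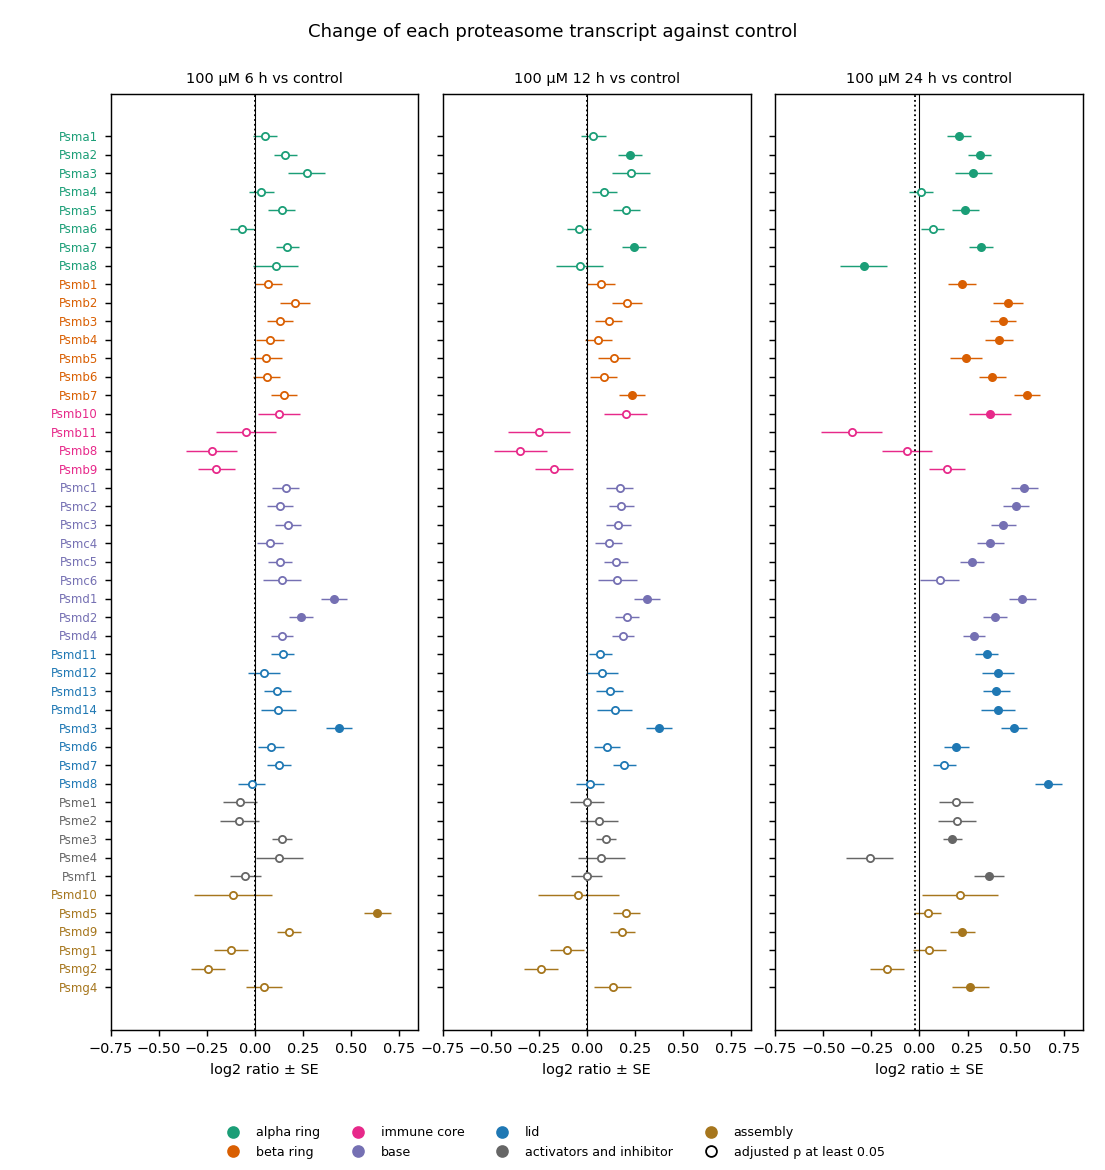
Log2 ratio against control of each of the 47 genes at 100 µM after 6, 12 and 24 h, with its standard error from edgeR on 3 libraries per group. Filled points passed an adjusted p under 0.05, open points did not, and the dotted line is the median over all genes. Called genes number 4 at 6 h, 5 at 12 h and 33 under the 24 h label, where points lie mostly to the right of the line under TMM scaling but, by library totals, 4 genes are higher and 17 lower.

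Under the 24 h label 32 of the 47 genes rose and 1 fell with TMM scaling, and 4 rose and 17 fell with library totals as the only scaling (by totals). Of all genes 61% were called with TMM scaling, with 29.7% of all higher and 31.3% lower. By totals 75.6% of all genes were called in either direction, beside 44.7% of the 47. Under the 200 µM label 32 rose and 2 fell with TMM scaling, against 60.5% of all genes (29.4% higher and 31.1% lower). By totals 3 rose and 18 fell, or 44.7% of the 47 against 74.6% of all genes. The scaling moved the median of all genes from -0.02 to -0.40 under both labels. The median of the 47 genes stood above it by a similar amount either way, at 0.27 with TMM and -0.10 by totals under the 24 h label and at 0.25 and -0.13 under the 200 µM label. Changes under these 2 labels are therefore ratios to the middle of all genes, not changes in the share of counts. In the heart-transcript fit 17 of the 47 genes (36.2%) were called under the 24 h label and 15 (31.9%) under the 200 µM label, all of them higher. Of all genes 36.7% and 36.9% were called in either direction. The medians of the 47 genes in this fit were 0.26 and 0.25, beside -0.03 over all genes under each label.

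The share of all counts held by the 47 genes moved accordingly. It was 0.698% to 0.754% in control, 0.757% to 0.799% after 6 and 12 h, and 0.683% to 0.699% under the 24 h and 200 µM labels. The 10 most abundant genes of a library held 5.05% to 5.94% of its counts in control and after 6 and 12 h, and 13.3% to 14.5% under the other labels.

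**Figure D3:**
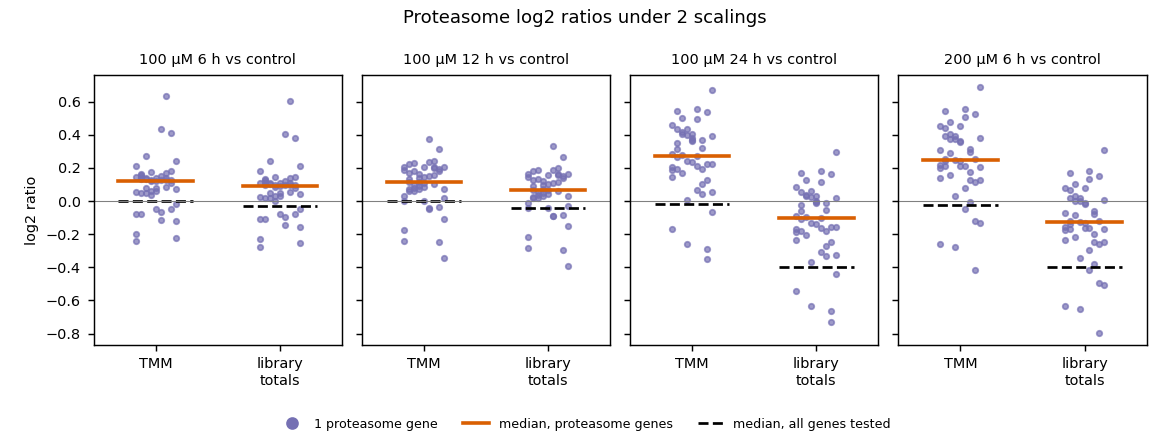
Log2 ratios against control of the 47 proteasome genes (points) under TMM scaling and under library totals, in 4 comparisons. Orange lines are medians of the 47 genes and dashed lines medians of all genes tested. Under the 24 h and 200 µM labels the proteasome median falls below 0 by library totals, at -0.10 and -0.13, and stays above the median of all genes, at -0.40.

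Of the alpha ring, 5 of 8 genes rose under the 24 h label and 1 fell, or 0 and 4 by totals, and 5 rose under the 200 µM label, or 0 higher and 5 lower by totals. Psma7 reached 181, 196 and 181 CPM under the 24 h label and 177, 191 and 187 CPM under the 200 µM label, above all controls (0.32 ± 0.06 and 0.31 ± 0.06). Psma1, Psma2, Psma3 and Psma5 also passed, at 0.21 to 0.31 under the 24 h label. Without control replicate 2 the 24 h calls of Psma1 and Psma3 were lost (edgeR adjusted p = 0.0523 and 0.100), and that of Psma3 also without control replicate 1 (0.0539) or replicate 1 or 3 of 24 h (0.0513 and 0.0806). In the heart-transcript fit 2 of the 8 passed under the 24 h label and 1 under the 200 µM label. The ranges of Psma3 overlapped those of control under both labels, and those of Psma5 under the 200 µM label. Psma4 and Psma6 did not pass, at 0.01 ± 0.06 and 0.07 ± 0.06. Psma8, a form of the alpha ring known from the testis and a close relative of Psma7, was at 16.1, 12.7 and 13.2 CPM in control and at 11.03, 10.5 and 12.9 CPM under the 24 h label. These ranges overlapped, and the fall of -0.29 ± 0.12 (edgeR adjusted p = 0.0439) was lost without control replicate 1 (0.213) and without replicate 1 or 2 of 24 h (0.116 and 0.153), and by DESeq2 (0.0760). Whether reads are shared between these 2 genes was not tested.

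All 7 beta ring genes rose under both labels, while by totals 1 rose and 1 fell under each. Psmb7 had the largest ratio. It was at 152, 144 and 156 CPM in control, at 219, 234 and 211 CPM under the 24 h label and at 212, 228 and 223 CPM under the 200 µM label. No library of these labels overlapped a control (log2 0.56 ± 0.07 in both, edgeR adjusted p = 9.06e-07 and 1.01e-06). After 6 h it was at 171, 158 and 173 CPM, short of the threshold (0.15 ± 0.07). Psmb6, the caspase-like cutting subunit, was at 108, 105 and 107 CPM in control, and at 134, 152 and 130 CPM and 129, 147 and 134 CPM under the 2 labels. Again the groups stood apart (0.38 ± 0.07 and 0.35 ± 0.07). Psmb5, the chymotrypsin-like cutting subunit that the inhibitor bortezomib blocks, was at 122, 122 and 125 CPM in control, and at 136, 158 and 143 CPM and 137, 165 and 137 CPM under the labels. All 6 of those libraries lay above control, replicate 2 of each label, a matched pair, highest. The rises of 0.24 ± 0.08 and 0.25 ± 0.08 were lost without replicate 2 of the label concerned (edgeR adjusted p = 0.0884 and 0.116). The structural subunits Psmb2, Psmb3, Psmb4 and Psmb1 rose by 0.46, 0.43, 0.41 and 0.22 under the 24 h label, the last of them not without replicate 2 of that group (edgeR adjusted p = 0.0640). In the heart-transcript fit 4 of the 7 passed under each label.

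Of the 4 immune core genes 1 rose under the 24 h label, and 1 rose and 1 fell under the 200 µM label, or 0 and 3 by totals under each. Psmb9, the interferon-inducible counterpart of Psmb6, was at 24.6, 27.9 and 24.5 CPM in control, and at 21.4, 24.7 and 21.5 CPM after 6 h. After 12 h it was at 21.7, 24.1 and 22.5 CPM, each below the lowest control. It was at 28.5, 31.3 and 25.2 CPM under the 24 h label and, under the 200 µM label, at 27.8, 31.5 and 25.7 CPM. The ranges overlapped those of control after 6 h and under both labels. No comparison with control passed (-0.20 ± 0.10, -0.17 ± 0.10, 0.14 ± 0.09 and 0.14 ± 0.10). Psmb8, the counterpart of Psmb5, was at 8.48, 8.02 and 6.65 CPM in control, and no zinc library was above 8.57 CPM. Its ratios were -0.22, -0.35, -0.06 and -0.13, none called.

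Psmb10, the counterpart of Psmb7, was at 14.1, 15.5 and 16.2 CPM in control and at 21.1, 21.3 and 16.5 CPM under the 24 h label, every library above control. It was at 18.1, 19.4 and 18.7 CPM under the 200 µM label. The rises were 0.37 ± 0.11 and 0.29 ± 0.11, but in the heart-transcript fit the adjusted p was 0.979 and 0.801. Under the 200 µM label the call was also lost without control replicate 1 (edgeR adjusted p = 0.103) or replicate 2 or 3 of that group (0.0766 and 0.0661). Psmb11, a form known from thymus cortical epithelium, was at 16.4, 11.2 and 15.3 CPM in control and at 10.6, 8.28 and 13.01 CPM under the 200 µM label. Control replicate 2 lay within the treated range, and the fall of -0.42 ± 0.16 (edgeR adjusted p = 0.0354) was lost without control replicate 1 or 3 (0.140 and 0.103), without replicate 1 or 2 of that group (0.0767 and 0.175) and in the heart-transcript fit (0.643). Leukocyte markers, genes of cells that use the immune forms, summed to 6.40, 7.92 and 6.69 CPM in control and 9.77, 9.94 and 9.87 CPM under the 24 h label. Of the 8 markers only Cd68 and Csf1r passed the filter. The part of these transcripts in the immune core values was not tested.

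Of the base, 8 of 9 genes rose under both labels, or 2 higher and 1 lower by totals under the 24 h label and 1 and 2 under the 200 µM label. Psmc1, an ATPase of the ring that threads substrates into the core, was at 261, 248 and 291 CPM in control. Under the labels it was at 383, 398 and 385 CPM and at 382, 395 and 386 CPM, well clear of control (0.55 ± 0.07 and 0.54 ± 0.07). Psmc2, another ATPase, followed at 0.50 ± 0.07 and 0.48 ± 0.07. Psmc4 was at 172, 169 and 177 CPM in control, 174, 177 and 197 CPM after 6 h, and 215, 239 and 215 CPM under the 24 h label. The 6 h range overlapped control and the 24 h range did not (0.37 ± 0.07), and the call was lost in the heart-transcript fit (edgeR adjusted p = 0.108). Psmd4, the receptor that binds ubiquitin chains, was at 116, 114 and 121 CPM in control, and at 146, 148 and 133 CPM and 141, 143 and 149 CPM under the labels (0.28 ± 0.06 and 0.31 ± 0.06). Psmc6 was the ATPase that did not pass, at 0.11 ± 0.10 and 0.12 ± 0.10. Replicate 2 of each label, a matched pair, was at 93.9 and 91.9 CPM, inside the control range of 84.7 to 110.9 CPM. Replicate 1 of 24 h and its matched library, replicate 3 of 200 µM, also lay inside it, at 108.2 and 110.6 CPM. The heart-transcript fit called 5 of the 9 higher under each label, namely Psmc1, Psmc2, Psmc3, Psmd1 and Psmd2.

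Of the lid, 7 of 8 genes rose under both labels, or 1 higher and 2 lower by totals under each. Psmd8, a small subunit whose docking completes the lid in yeast, showed the largest rise of the 47 under these labels. It was at 176, 161 and 175 CPM in control, at 167, 156 and 183 CPM after 6 h and at 179, 170 and 169 CPM after 12 h, all within or close to the control range (-0.02 ± 0.07 and 0.02 ± 0.07). Levels were 268, 290 and 257 CPM under the 24 h label and, under the 200 µM label, 257, 295 and 273 CPM. Those 6 libraries, which form 3 matched pairs, lay above the other 9 (0.67 ± 0.07 and 0.69 ± 0.07, 1.59-fold and 1.61-fold, edgeR adjusted p = 1.94e-07 and 1.52e-07). Psmd8 was higher by library totals as well, at 0.29 and 0.31.

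Psmd14, the enzyme that cuts ubiquitin chains off the substrate, was at 79.2, 74.8 and 86.0 CPM in control, and at 107, 93.1 and 118 CPM and 122, 97.5 and 109 CPM under the labels. The groups stood apart, with replicate 2 of each label, a matched pair, the lowest (0.41 ± 0.09 and 0.45 ± 0.09). In the heart-transcript fit the adjusted p was 0.0569 under the 24 h label. The scaffold subunits Psmd11 and Psmd12 were at 124, 120 and 127 CPM and at 185, 170 and 198 CPM in control. They reached 162, 156 and 154 CPM and 252, 236 and 245 CPM under the 24 h label, in every case above control (0.35 ± 0.06 and 0.41 ± 0.08). Under the 200 µM label the ratios were 0.39 ± 0.06 and 0.40 ± 0.08. Psmd7, the partner of Psmd14, did not pass (0.13 ± 0.06 and 0.12 ± 0.06), and Psmd6 passed at 0.19 ± 0.07 and 0.17 ± 0.07. Both calls of Psmd6 were lost without control replicate 2 (edgeR adjusted p = 0.0934 and 0.146), and the 200 µM call also without control replicate 1 (0.0757) or replicate 1 of that group (0.187).

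**Figure D4:**
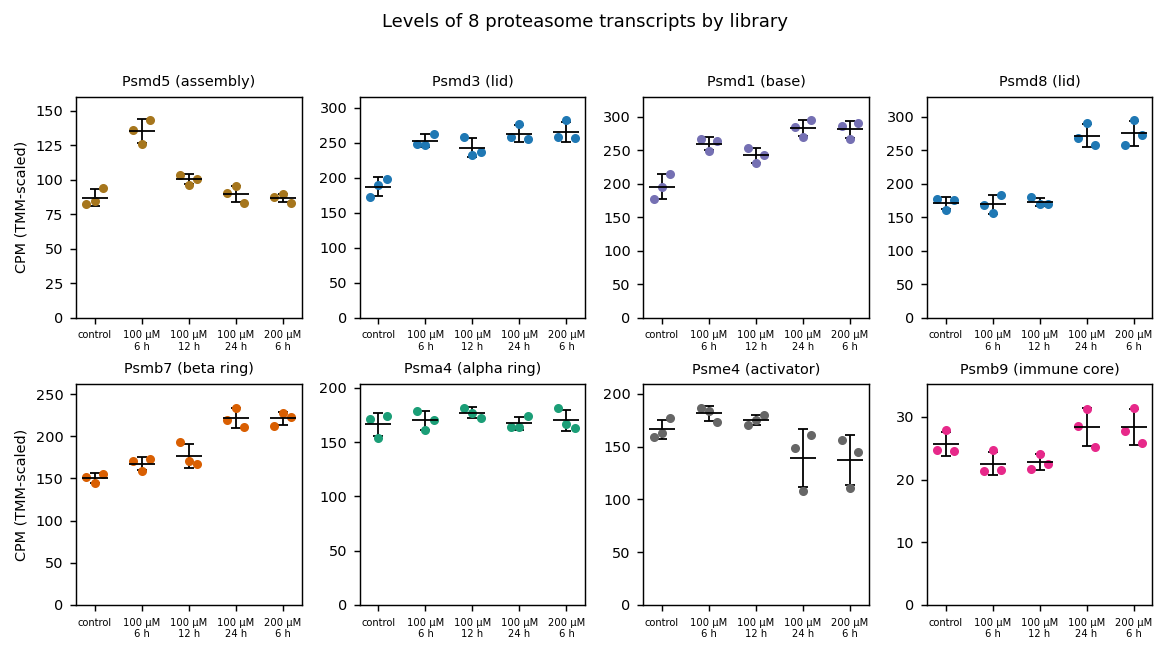
TMM-scaled CPM of 8 proteasome genes in each library, with 1 point per library and bars for the mean and SD of 3. Psmd5 is high after 6 h at 100 µM, Psmd1 and Psmd3 in all zinc groups and Psmd8 under the 24 h and 200 µM labels, while Psma4 overlaps control throughout and replicate 2 of both labels is lowest for Psme4.

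Activators and the inhibitor went different ways. Under both labels 2 of 5 rose and none fell, or 0 higher and 2 lower by totals. Psme3, the nuclear activator, was at 169, 164 and 167 CPM in control, and at 187, 190 and 187 CPM and 185, 190 and 183 CPM under the labels, a small rise without overlap (0.17 ± 0.05 and 0.16 ± 0.05). It was lost in the heart-transcript fit (edgeR adjusted p = 0.0917 and 0.119), and under the 200 µM label without replicate 2 of that group (0.0531). Psmf1, known as a proteasome inhibitor in vitro, was at 42.1, 42.6 and 39.9 CPM in control, 50.2, 57.2 and 52.8 CPM under the 24 h label and 47.8, 55.3 and 44.6 CPM under the 200 µM label. All 6 lay above control (0.36 ± 0.08 and 0.24 ± 0.08). The heart-transcript fit ended both calls (edgeR adjusted p = 0.226 and 0.591), and the 200 µM call was lost without control replicate 3 (0.0516) or replicate 2 of that group (0.112).

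Psme1 and Psme2, which form the interferon-inducible activator ring, were at 87.2, 102 and 97.3 CPM and at 46.9, 54.7 and 50.4 CPM in control. They were at 111, 118 and 97.2 CPM and at 59.6, 63.3 and 50.8 CPM under the 24 h label, in both cases with replicate 3 inside the control range. Neither passed (0.19 ± 0.09 and 0.19 ± 0.10), and nor did they under the 200 µM label (0.20 ± 0.09 and 0.21 ± 0.10). Without replicate 3 of 24 h both passed (edgeR adjusted p = 0.0213 and 0.0297), as they did without its matched library, replicate 1 of 200 µM (0.0112 and 0.0223). Without control replicate 2, Psme1 passed under both labels (edgeR adjusted p = 0.0465 at 24 h and 0.0408 at 200 µM). Psme2 then passed only under the 200 µM label (0.0486). Psme4, an activator known from nuclei and the testis, was at 159, 163 and 177 CPM in control, and at 148, 108 and 161 CPM and 156, 111 and 145 CPM under the labels. Replicate 2, a matched pair, stood far below the other replicates of both labels. The ratios to control of -0.26 ± 0.12 and -0.28 ± 0.12 did not pass. They did without replicate 3 of 24 h (edgeR adjusted p = 0.0192) or its matched library, replicate 1 of 200 µM (0.0220).

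Assembly chaperones showed small changes beside that of Psmd5. Of the 6, 2 rose under the 24 h label, and under the 200 µM label 2 rose and 1 fell, or 0 higher with 4 and 3 lower by totals. Psmd9, a base chaperone, rose by 0.22 ± 0.06 and 0.25 ± 0.06, and Psmg4, a core chaperone, by 0.27 ± 0.10 and 0.24 ± 0.10, with ranges overlapping control under the 200 µM label for Psmg4. Without control replicate 2 the calls of Psmg4 were lost (edgeR adjusted p = 0.0957 and 0.150), and the 200 µM call also without control replicate 3 (0.0634) or replicate 2 or 3 of that group (0.287 and 0.0643). None of the 6 passed in the heart-transcript fit under either label. Psmg2, which helps the alpha ring form, was at 23.6, 20.4 and 22.3 CPM in control and at 19.0, 18.2 and 18.1 CPM under the 200 µM label, each below control (-0.26 ± 0.09, edgeR adjusted p = 0.0189). That call was lost without control replicate 1 (0.0755) or replicate 3 of that group (0.0607). Its partner Psmg1 was at 71.96, 62.5 and 69.8 CPM in control, and its ratios of 0.05 ± 0.09 and 0.13 ± 0.09 did not pass. Psmd10, a base chaperone also called gankyrin, stayed between 2.73 and 6.43 CPM over all libraries, and no comparison called it.

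Summed over 15 alpha and beta ring genes, the core was at 1911 to 2123 CPM in control, 2090 to 2314 CPM after 6 and 12 h and 2397 to 2531 CPM under the 24 h and 200 µM labels. The 17 base and lid genes summed to 3443 to 3771, 3818 to 4251 and 4547 to 4763 CPM. With TMM scaling both sums stood above control in every library of the last 2 labels. The share of all counts held by the 47 genes did not, at 0.683% to 0.699% under these labels and 0.698% to 0.754% in control. The ratio of the second sum to the first was 1.74 to 1.802 in control, 1.79 to 1.92 after 6 and 12 h and 1.87 to 1.94 under the labels. Within groups the genes deviated together by library: control replicate 2 was the lowest of its group for 33 of the 47 genes and replicate 3 the highest for 32, and replicate 1 of 12 h was the highest for 35.

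Between 12 and 24 h at 100 µM 19 of the 47 genes were higher under the later label and 1 was lower, against 54.5% of all genes called (26.9% higher and 27.6% lower). By totals 1 was higher and 23 were lower, or 51.1% of the 47 against 69.7% of all genes. Between 100 and 200 µM at 6 h 21 were higher and 2 lower, against 53.6% of all genes (26.5% higher and 27.1% lower). By totals 1 was higher and 23 were lower, or 51.1% of the 47 against 69.6% of all genes. These comparisons rest on the near-identical libraries of the 2 labels. Psmd8 had the largest rise in both (0.65 ± 0.07 and 0.70 ± 0.07), and Psmc1 (0.38 ± 0.07 in both) and Psmb7 (0.32 ± 0.07 and 0.40 ± 0.07) rose as well. Psmb9, not called against control, was higher by 0.32 ± 0.10 and 0.34 ± 0.10, lost without replicate 2 of the label concerned (edgeR adjusted p = 0.0692 and 0.0504). Psme4 was lower by -0.33 ± 0.12 and -0.40 ± 0.12, and without replicate 2 of the label concerned by -0.18 and -0.27 (edgeR adjusted p = 0.147 and 0.0558). The first of these falls was also lost without any 1 of the 12 h libraries (0.0513, 0.0684 and 0.0824). Set directly against each other, the 24 h and 200 µM labels differed in 0 of the 47 genes by edgeR, DESeq2 and limma-voom, with 0 at an unadjusted p under 0.05 and log2 ratios of -0.17 to 0.26, against 0% of all genes called. Of all 10575 genes 69 had an unadjusted p under 0.05. The comparison was not paired, so the spread between the 3 libraries of a label enters its error, and the count of 0 does not show that the labels are alike.

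Genes that work with the proteasome but carry other names were taken from lists, whose counts stand beside 17.2% of all genes called after 6 h, 6.33% after 12 h, 61% under the 24 h label and 60.5% under the 200 µM label. By totals the shares of all genes under the 24 h and 200 µM labels were 75.6% and 74.6%. Of 10 tested components and partners, 1 rose after 6 h and 1 after 12 h, and under both labels 6 rose and 2 fell, or 3 and 4 by totals. Adrm1, a ubiquitin receptor bound to Psmd1, rose after 6 h and under both labels, by 0.31 ± 0.07, 0.68 ± 0.07 and 0.67 ± 0.07. After 12 h its ratio was 0.22 ± 0.07, with an edgeR adjusted p of 0.0494 that became 0.0508 with DESeq2 size factors, 0.0843 by totals and 0.710 in the heart-transcript fit, where the 6 h call was lost as well (0.0875). Pomp, the chaperone that matures the core, rose under the 24 h and 200 µM labels (0.36 ± 0.07 and 0.33 ± 0.07), but by totals its ratios were -0.02 and -0.05, and the 200 µM call was lost in the heart-transcript fit (edgeR adjusted p = 0.0570). Zfand5, a proteasome-binding activator, rose under both labels (0.98 ± 0.08 and 0.96 ± 0.08), also by totals. Usp14, a deubiquitinase of the base, did not pass (-0.04 ± 0.07 and -0.03 ± 0.07) and was lower by totals (-0.42 and -0.41), and the ubiquitin ligase Ube3a fell by -0.81 ± 0.16 and -0.80 ± 0.16, calls lost in the heart-transcript fit (edgeR adjusted p = 0.133 and 0.139).

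Of 12 genes of the Nfe2l1 pathway, 4 rose and 3 fell after 6 h, none rose and 2 fell after 12 h, and 6 rose and 3 fell under each of the 24 h and 200 µM labels, or 6 and 6 by totals. The transcript of Nfe2l1 itself fell after 6 h by -0.40 ± 0.06 and under the labels by -0.62 ± 0.06 in both. Nfe2l2, its relative, fell after 6 and 12 h (-0.77 ± 0.07 and -0.58 ± 0.07) and did not pass under the labels (0.12 ± 0.07 and 0.10 ± 0.07), where by totals it was lower (-0.26 and -0.27). Its 12 h call was lost in the heart-transcript fit (edgeR adjusted p = 0.0810). Maff and Mafk, small Maf partners of these factors, rose by 3.46 ± 0.07 and 2.55 ± 0.09 under the 24 h label, and Vcp, the ATPase that extracts ubiquitinated proteins, by 0.62 ± 0.05. Of 10 ubiquitin receptors and shuttles 2 rose and 1 fell after 6 h, none rose and 1 fell after 12 h, and 6 rose under each label, or 4 higher with 5 and 4 lower by totals. Sqstm1, an autophagy receptor for ubiquitinated protein, fell by -0.33 ± 0.09 after 12 h and rose by 1.92 ± 0.09 and 1.91 ± 0.09 under the labels. The 12 h fall was lost in the heart-transcript fit (edgeR adjusted p = 0.548).

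Of 12 tested genes of antigen presentation by MHC class I, which uses peptides cut by the immune core, 3 fell after 6 h and 1 after 12 h. Under each label 4 rose and 4 fell, or 0 and 8 by totals. B2m, the light chain, did not pass in any comparison (-0.25 ± 0.10, -0.16 ± 0.10, 0.15 ± 0.10 and 0.11 ± 0.10), and the peptide transporter gene Tap2 fell after 6 and 12 h (-0.32 ± 0.09 and -0.33 ± 0.09), the 12 h call being lost in the heart-transcript fit (edgeR adjusted p = 0.267). By totals both were lower under the labels (-0.23 and -0.26 for B2m, -0.34 and -0.30 for Tap2). The 4 that rose were the class I genes RT1-A1, RT1-A2, RT1-CE1 and RT1-CE5, near copies of each other whose reads may be shared. By totals their ratios were -0.05 to 0.03, and in the heart-transcript fit none passed (edgeR adjusted p = 0.331 to 0.555).

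Over the 15 libraries the genes whose log2 CPM followed the summed core most closely, among 7891 compared, were Slc25a5, Nme2, Cfl1, Rps26 and Atp5mc3. Pearson's r was 0.978 to 0.972, as a description, since the libraries share groups and depths. The 2 genes matched by name only and tested, Psmc3ip and Psme3ip1, were not called in any comparison with control. Their log2 ratios under the 24 h label were -0.09 ± 0.07 and 0.12 ± 0.07.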

How the data were processed

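RNA sequencing of 15 Odora libraries was used as read counts per gene, whole numbers that the authors deposited without normalization. Per the submitters' processing notes the work involved bcl2fastq, CASAVA 1.8, TopHat, DESeq and the rat build rn4. How reads were counted, with which annotation and strand setting, and what was done with reads matching several genes is unknown: none of it is given in the sources used here. Close copies may share reads.

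Symbols came from RefSeq genes of assembly GRCr8, which named 16671 of 16832 and left 161 unnamed. Coordinates and promoter windows are those of GRCr8, not of the build of the counts. Coding lengths were not used here, so levels are compared between groups and not between genes.

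All 15 libraries were fitted together with edgeR 4.0.16 in R 4.3.3 (TMM, filterByExpr, robust quasi-likelihood F test, group as the factor). The filter left 10575 genes and removed 6257. Adjustment was by Benjamini and Hochberg over all tested genes, with a threshold of 0.05, and log2 ratios carry the standard error of the fit. Levels are CPM from the TMM-scaled totals. The code was tested on simulated counts.

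The genes, the lists and the rules for naming were chosen with earlier results of these data known. Named with all their libraries were 20 subunits listed by function, plus in each comparison with control the 3 highest, the 3 lowest and the 3 with the smallest adjusted p. Companion genes named were Nfe2l1, Pomp, Adrm1, Usp14, Sqstm1, B2m and others of small adjusted p. Zfand5, Ube3a, Maff, Mafk, Vcp, Psma4, Psmc6 and the RT1 genes were picked for the text by this rule or after their values were seen. Not every companion gene is reported here. The direct comparison of the 24 h and 200 µM labels was added after seeing that their libraries matched.

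Replicate numbers were checked as pairs by correlating deviations from group means across genes. In each comparison the correlation was under 0.1 for at least 1 of the 3 numbers, so no pairing was used. Against control, number 2 gave 0.39 at 6 h, 0.28 at 12 h and 0.24 under both the 24 h and 200 µM labels. Number 1 gave 0.11 to 0.17 there and number 3 gave -0.06 to 0.08. Between the 24 h and 200 µM labels number 2 gave 0.57. An effect shared by libraries of the same number was not tested beyond the fit with a block. Alternatives were DESeq2 1.42.0, limma-voom (limma 3.58.1), edgeR with DESeq2 size factors or with library totals alone, no filter, a filter of 50 counts in 3 libraries, a block for the replicate number, only the 6 libraries in question, a heart-transcript term, leaving out either of the near-identical labels, a log2 ratio of at least 0.5 and each library left out in turn.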

Additional observations from a re-analysis of the deposited data

How the results depend on the processing

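Of 108 ratios to control of named proteasome genes, none changed direction under limma-voom or the replicate block. Ratios called in neither the reported fit nor the alternative changed sign as follows. Psme1 at 12 h came to -0.0034 with no filter, -0.00053 with 50 counts and -0.0062 with 6 libraries. DESeq2 and its size factors gave Psmf1 at 12 h 0.0043 and 0.0031, and Psmd5 under the 200 µM label 0.012 and 0.013. Leaving out 1 library gave, at 6 h, -0.0084 to 0.13 for Psmd12, -0.20 to 0.063 for Psmb11, -0.078 to 0.036 for Psmd8 and -0.10 to 0.0030 for Psmf1. At 12 h it gave -0.13 to 0.053 for Psmd10, -0.0057 to 0.14 for Psmd12, -0.024 to 0.039 for Psmd8, -0.062 to 0.049 for Psme1, -0.14 to 0.070 for Psma8 and -0.029 to 0.017 for Psmf1. Under the 24 h label Psmb8 ranged from -0.18 to 0.017, Psmg1 from -0.0072 to 0.11 and Psmd5 from -0.0025 to 0.10, and under the 200 µM label Psmd10 from -0.25 to 0.19 and Psmd5 from -0.046 to 0.055.

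The heart-transcript fit turned 10 ratios: Psmb11 and Psmb10 at 6 h (0.086 and -0.097), Psmd10, Psmb10, Psmd8, Psme2 and Psme1 at 12 h (0.11, -0.16, -0.0045, -0.12 and -0.047), and Psmd10, Psmd5 and Psmb10 under the 200 µM label (0.11, 0.012 and -0.065). Library totals turned 28. These were Psmd8 and Psme1 at 12 h (-0.027 and -0.043), and Psmd10, Psme2 and Psme1 under the 24 h label (-0.17, -0.18 and -0.19) and Psme2 and Psme1 under the 200 µM label (-0.17 and -0.18), besides 21 called in at least 1 of the 2 fits. Under the 24 h label Psmc4, Psmb10, Psmf1, Psmd11, Psma7, Psmd4 and Psmb5 came to -0.0075, -0.011, -0.014, -0.026, -0.054, -0.093 and -0.13, and Psme3, Psmb9, Psmg1 and Psmd5 to -0.20, -0.23, -0.33 and -0.33. Under the 200 µM label Psmc4, Psmb6, Psma7, Psmd4, Psmb10, Psmb5 and Psmf1 came to -0.012, -0.021, -0.063, -0.069, -0.081, -0.13 and -0.13, and Psme3, Psmb9 and Psmg1 to -0.22, -0.24 and -0.25. By construction these values keep the share of counts that the most abundant genes take. How much of the changes of sign goes with that share was not tested. The cause of the changes of sign in the other fits was not tested either.

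Of the 4 genes called at 6 h, DESeq2 made it 8 and a log2 ratio of at least 0.5 left 1. Of the 5 at 12 h, DESeq2 gave 8, library totals 3, no filter 3, the 6 libraries compared 2, the heart-transcript fit 0 and the log2 minimum 0. Of the 33 and 34 under the 24 h and 200 µM labels, library totals gave 21 and 21, against 75.6% and 74.6% of all genes. Of these, 17 and 18 were lower where 32 and 32 had been higher. The heart-transcript fit gave 17 and 15, all higher, and the log2 minimum left 5 and 5. The log2 minimum left 0 from 6 to 12 h, 1 from 12 to 24 h and 2 between doses. The cause of the other shifts was not tested.

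With the replicate number as a block, 12 genes were called at 6 h (10 higher and 2 lower), 10 at 12 h and 37 under each of the 24 h and 200 µM labels, where the numbers share no stated pairing. Leaving out each library gave 3 to 8 calls at 6 h, 1 to 6 at 12 h, 30 to 35 and 27 to 33 under the 2 labels, 1 to 1 from 6 to 12 h, 15 to 21 from 12 to 24 h, 16 to 25 between doses, 0 to 0 between the labels and 27 to 33 in the overall test. Totals of 10.3 M counts in the shallowest library limit the precision of low genes such as Psmd10.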
